A study of Mus musculus with 2 samples.

Results

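The proteasome subunit genes were taken as every mouse symbol starting with Psma, Psmb, Psmc, Psmd, Psme or Psmg that a non-control probe named through its RefSeq accession. The immunoproteasome genes Psmb8, Psmb9 and Psmb10 were left out. The rule gave 46 genes of 18946 named genes on the array, covered by 64 probes, and each gene took its brightest probe. The rule itself uses names and brightness, and no ratio between the pools. The set held 7 alpha ring genes, 7 beta ring genes, 9 base genes, 8 lid genes, 4 activators, 4 core assembly chaperones and 3 base assembly chaperones. A further 2 genes encode tissue-restricted core subunits (Psma8 and Psmb11). Psmc3ip and Psme3ip1 came in by their names only, since they encode partners and not subunits. Psme2b was not analysed here.

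RNA came from the dorsolateral prostate of FVB/N mice aged 6 months. A wild-type pool of 6 mice was compared with a pool of 6 ARR2PB-miR32 transgenic mice, in which a composite probasin promoter drives the microRNA miR-32 in prostate epithelium. The pools shared 2 arrays on 1 slide, each read in Cy3 and Cy5, and the dyes were exchanged between the arrays: the transgenic pool in Cy3 on array 1 and in Cy5 on array 2. Each genotype was thus measured in 1 pool, the arrays are technical repeats of the same RNA, genotype could not be tested, and each ± is the SD over the 2 arrays. The pools hold whole tissue, in which fewer cells of a type and less RNA per cell cannot be told apart. The sources used here do not give the number of transgenic founder lines.

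The proteasome is the main protease of the cytosol and nucleus and degrades proteins tagged with ubiquitin. Its barrel-shaped core has outer rings of alpha subunits, which gate the entrance, around inner rings of beta subunits, of which Psmb5, Psmb6 and Psmb7 carry the active sites. A cap made of a base, with the ATPases that unfold substrates, and a lid, with the enzyme that removes ubiquitin, sits on the core, and other activators can take its place. Its subunit genes are expressed in nearly all cells and share the regulator Nfe2l1, which binds antioxidant response elements.

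The product of the transgene is shown because its seed (capitals, bases 2 to 8) is what would pair with a target. It is mmu-miR-32-5p of RefSeq GRCm38.p6, chr4:56895272-56895293, minus strand, 5′ to 3′:
mmu-miR-32-5p: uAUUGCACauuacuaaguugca

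Upstream sequences of RefSeq GRCm38.p6 were found for 38 of the 46 genes and searched on both strands, from 250 bases before to 50 after the start, for 5 motifs. The 150 bases before the start follow for the catalytic subunit genes Psmb5 (chr14:54617996-54618145, minus strand) and Psmb6 (chr11:70525207-70525356, plus), and for genes with large ratios below: Psmc2 (chr5:21785125-21785274, plus), Psmd2 (chr16:20651502-20651651, plus), Psma4 (chr9:54950709-54950858, plus) and Psme3 (chr11:101316063-101316212, plus). Capitals mark matches on either strand to TGACNNNGC (antioxidant response element core), CCGGAAG (ETS-type), CCAAT or GGGCGG (GC box). Neighbouring GC boxes in Psma4 overlap.
Psmb5: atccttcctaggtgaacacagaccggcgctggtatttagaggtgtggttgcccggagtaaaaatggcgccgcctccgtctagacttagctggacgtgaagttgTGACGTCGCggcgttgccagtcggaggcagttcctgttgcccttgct
Psmb6: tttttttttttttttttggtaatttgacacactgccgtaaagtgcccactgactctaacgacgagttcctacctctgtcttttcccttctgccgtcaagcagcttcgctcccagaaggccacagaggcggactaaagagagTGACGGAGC
Psmc2: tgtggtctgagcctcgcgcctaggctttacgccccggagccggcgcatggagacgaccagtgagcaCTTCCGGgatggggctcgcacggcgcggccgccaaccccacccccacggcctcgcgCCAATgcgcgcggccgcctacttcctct
Psmd2: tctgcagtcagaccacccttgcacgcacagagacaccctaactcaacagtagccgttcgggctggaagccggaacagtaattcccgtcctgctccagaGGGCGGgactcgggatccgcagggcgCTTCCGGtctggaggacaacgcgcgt
Psma4: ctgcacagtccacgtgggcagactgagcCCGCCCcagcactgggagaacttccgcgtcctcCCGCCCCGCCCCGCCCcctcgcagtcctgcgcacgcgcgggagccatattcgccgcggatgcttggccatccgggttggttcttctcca
Psme3: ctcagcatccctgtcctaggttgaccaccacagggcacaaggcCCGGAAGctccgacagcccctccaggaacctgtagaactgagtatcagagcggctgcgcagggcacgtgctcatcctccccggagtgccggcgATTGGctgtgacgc

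The ETS-type motif lay in 14 of the 38 proteasome promoters (36.8%), against 9.12% of 27025 promoters of all genes and 18.6% of 8347 promoters of genes detected here. The antioxidant response element core lay in 6 of 38 (15.8%), namely Psmb5, Psmb6, Psmc6, Psmd9, Psmd12 and Psme4, against 12.5% of all and 15.1% of detected genes. Of the catalytic subunits, Psmb5 holds it 47 bases and Psmb6 9 bases before the start. Psmb7 and Psmc3 had no upstream sequence here and were not searched. CCAAT lay in 36.8% of the members against 38.5% of detected genes, and the GC box in 57.9% against 65.1%. The TATA box letters TATAAA lay in 3 of 38 (7.89%) against 7.57% of detected genes. The median log2 ratio of transgenic over wild type, described below, was −0.12 with and −0.11 without the ETS-type motif, over 14 and 23 detected genes. It was −0.01 with and −0.14 without the antioxidant response element core, over 6 and 31. Letters that match are not evidence of binding.

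Nearly all proteasome genes gave a signal in this tissue. A gene counted as detected when, on each array, the wild-type or the transgenic signal of its probe stood well above background, and the same pool did so both times, which held for 44 of 46 members (95.7%) and for 10407 of 18946 genes (54.9%). In both pools on both arrays, 39 members (84.8%) and 31.9% of all genes were above background. The 2 undetected genes were Psma8, the alpha subunit of spermatogenic cells, and Psmb11, the catalytic subunit of thymic cortical epithelium. Psmc2, Psmd8, Psmd13, Psmg1 and Psmg3 were above background in wild type both times and in the transgenic pool on array 1 only. Cy5 of array 2, which carried the transgenic pool, was the weakest channel, with 21.1% of spots above background against 57% in Cy3 of that array.

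**Figure D1:**
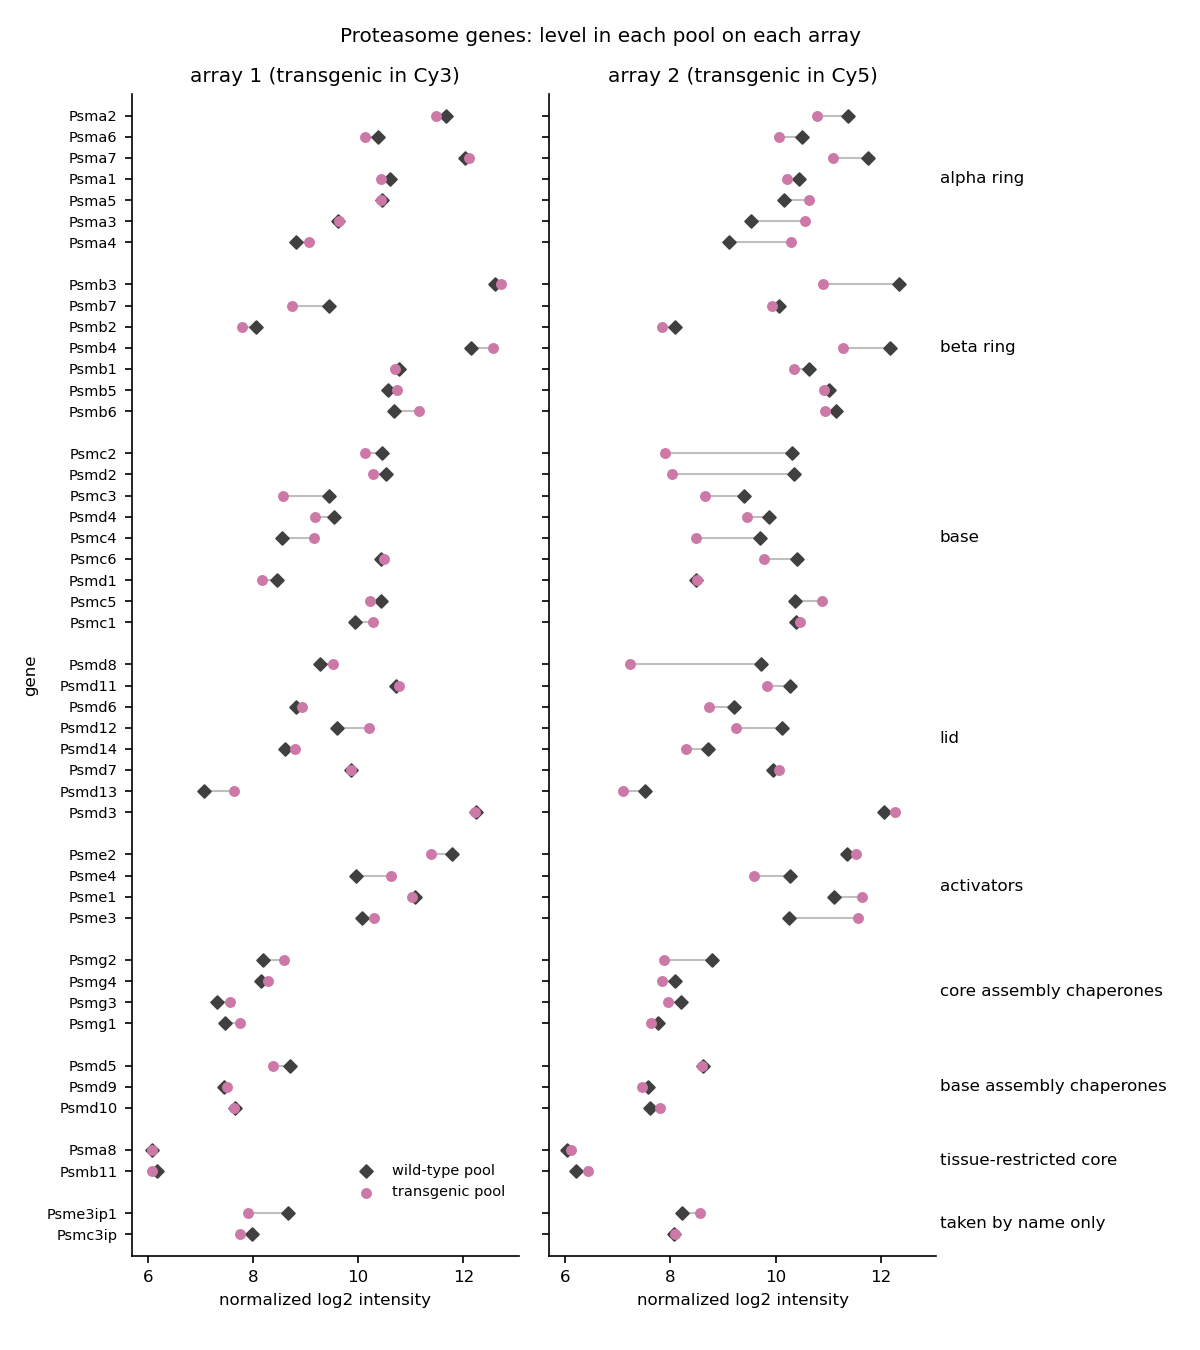
Normalized log2 intensity of each proteasome gene in the wild-type pool (diamonds) and the transgenic pool (circles), array 1 on the left and array 2 on the right, genes grouped by role. Each point is 1 pool on 1 array; levels are to be read within a gene. On array 1 the pools lie at most 0.88 log2 units apart, for Psmc3. On array 2 Psmc2, Psmd2 and Psmd8 of the transgenic pool lie more than 2 log2 units below the wild-type pool.

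A gene was called when its ratio of transgenic over wild type reached 1.5-fold on array 1 and on array 2 with the same sign. By that rule 1 of the 44 detected members was lower in the transgenic pool (Psmc3), none was higher and 43 were neither. Of all 10407 detected genes, 2.22% were called, 1.31% lower (136) and 0.913% higher (95), so the members' 2.27% was near the background. The scanner's own log ratios gave 621 lower and 246 higher genes in place of this split, median centring without loess 554 and 2, and the authors' deposited table gave 117 and 173 of 6046 genes. Detection rested on the wild-type pool only for 4345 genes and on the transgenic pool only for 10. Among the 6052 genes detected in both pools, 76 were lower and 92 higher, with a median log2 ratio of −0.02. Of the 39 members among them, 1 was lower and 0 higher, with a median of −0.14. The median log2 ratio of the members was −0.13, against −0.06 over all detected genes. It was 0.03 against −0.03 on array 1 and −0.24 against −0.08 on array 2. Of the 44 members, 28 had ratios of opposite sign on the arrays (63.6%, against 54.6% of all genes), 11 were below 0 on both and 5 above 0 on both. The mean ratio lay within 0.5 of 0 in log2 for 36 of 44 members (81.8%, against 90.3% of all genes).

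Single members were spread out on array 2. On array 1, 6 of 44 members (13.6%) were past 1.5-fold in either direction, as were 13.5% of all genes. On array 2 it was 16 members (36.4%), 13 of them lower, against 20.3% of all genes. The members lie among the bright probes: 30 of 44 (68.2%) were among the brightest 2602 of the detected genes, where 15 of these 30 members and 32.7% of all genes were past 1.5-fold on array 2. The median SD over the arrays was 0.39 for the members and 0.28 for all detected genes.

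**Figure D2:**
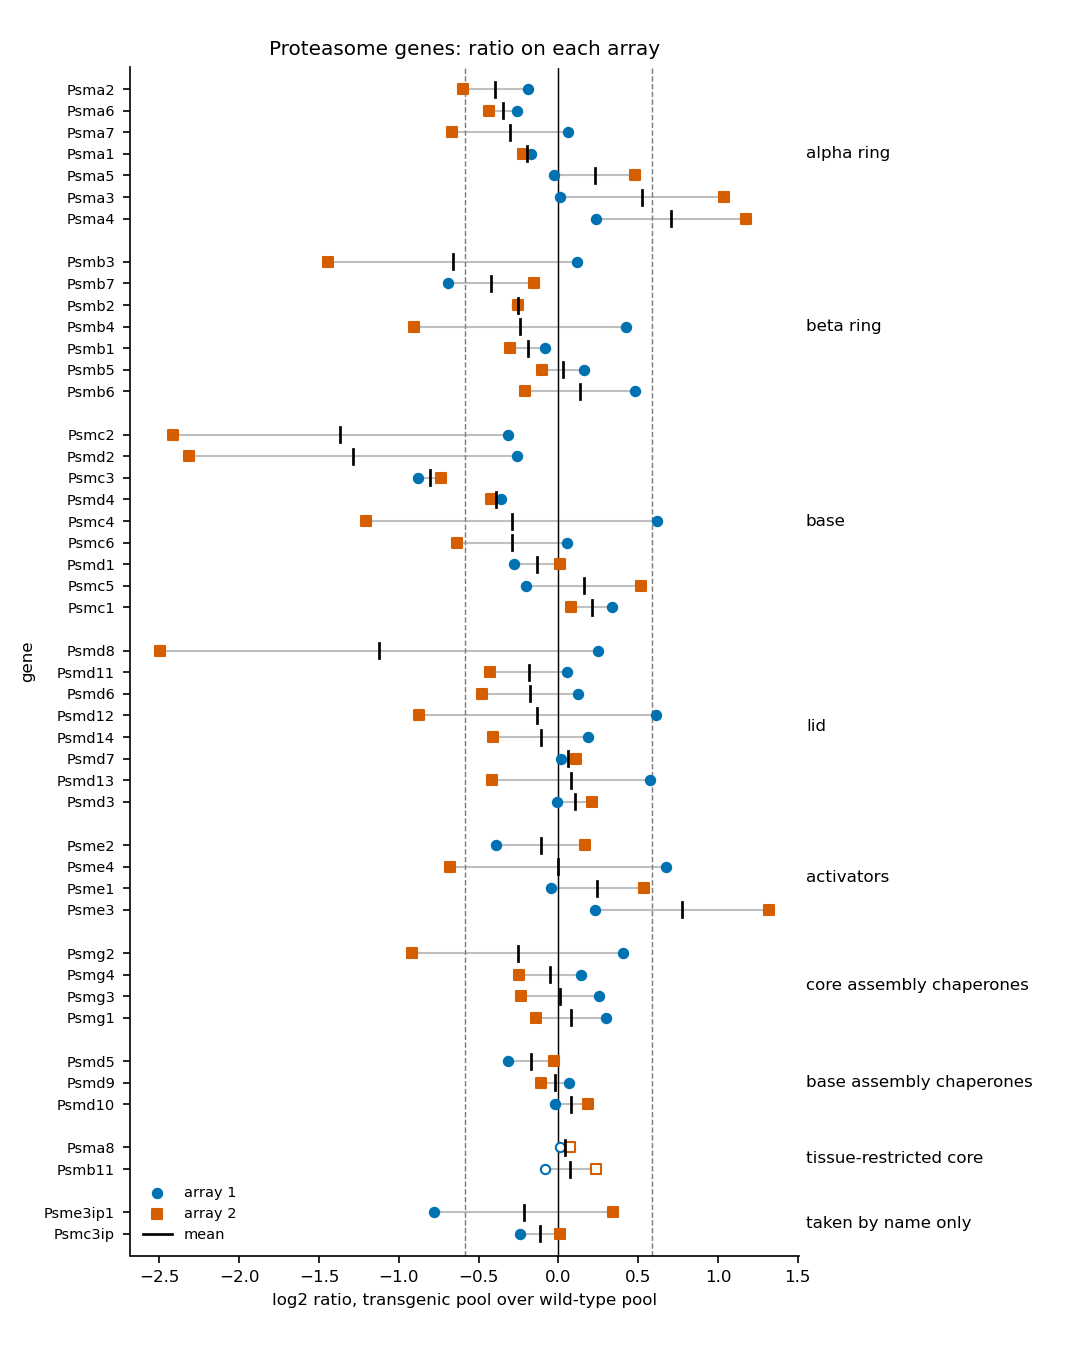
Log2 ratio of transgenic over wild type for each proteasome gene on array 1 (circles) and array 2 (squares), with the mean of both (bar) and dashed lines at 1.5-fold; open symbols are undetected genes. Only Psmc3 has both points beyond the same dashed line, and Psmc2, Psmd2, Psmd8 and Psmb3 have array 2 points below −1.4 with array 1 points between −0.32 and 0.25.

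The large array 2 ratios lay at 1 side of the array. Spots sit in 85 columns, and all members in columns 71 to 85, 12 of the 44, were looked at apart. On array 2, 8 of these 12 members were past 1.5-fold (66.7%) and 39.4% of the 1779 detected genes there were. In columns 1 to 70 it was 8 of 32 members (25%) and 16.3% of 8628 genes. Past 2-fold on array 2 were 7 members in columns 71 to 85 (Psmc2, Psmd2, Psmd8, Psmb3, Psmc4, Psma3 and Psma4) and 1 in columns 1 to 70 (Psme3), while 19.6% and 3.67% of all genes were. On array 1 the shares of all genes past 1.5-fold were 17.5% in columns 71 to 85 and 12.7% in columns 1 to 70. In columns 1 to 70 the median ratio of the members was −0.08 against −0.04 for all genes there. The edge of the array was chosen after its values were seen.

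**Figure D3:**
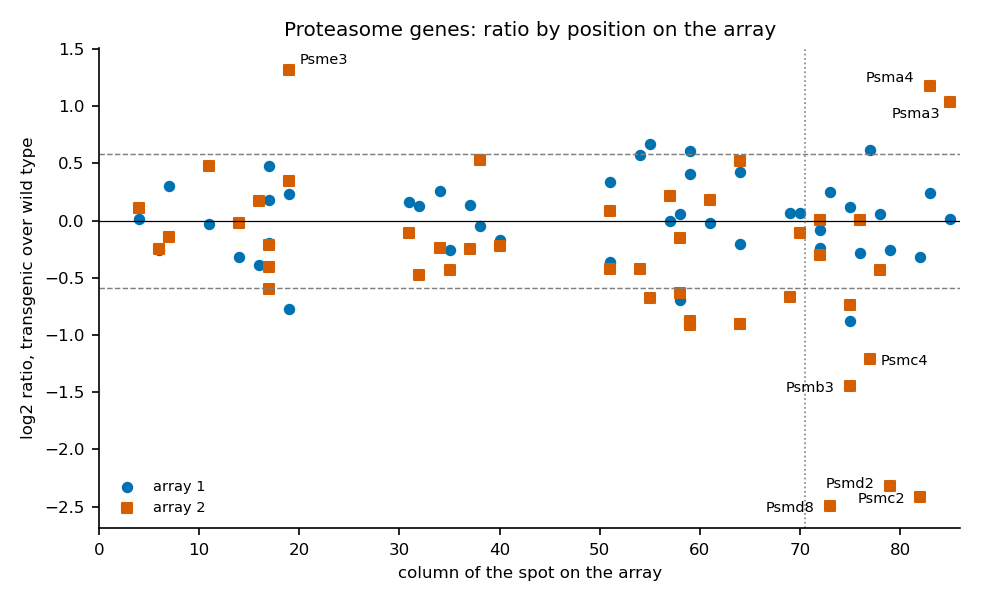
Log2 ratio of each detected proteasome gene on array 1 (circles) and array 2 (squares) against the column of its spot, with dashed lines at 1.5-fold and a dotted line after column 70. Right of column 70 the array 2 values run from −2.50 to 1.18; left of it Psme3 at 1.32 is the only one past 2-fold.

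In the alpha ring, 0 of 7 genes were called and the median ratio was −0.20 (−0.03 on array 1 and −0.22 on array 2). The sign turned with the scanner's own log ratios, to 0.11, and in the authors' deposited table, to 0.09. That table follows the scanner's ratios, so these are not separate checks. Psma3 was read at 9.64 in the transgenic and 9.63 in the wild-type pool on array 1, and at 10.57 and 9.53 on array 2, in normalized log2 intensity. Psma4 was read at 9.06 and 8.82 on array 1 and at 10.30 and 9.12 on array 2. The pools of both genes were thus apart on array 2 only, with ratios of 0.53 ± 0.73 and 0.71 ± 0.66. Their spots are in columns 85 and 83. With the median of the surrounding block of spots subtracted, their array 2 ratios went from 1.04 to 0.53 and from 1.18 to 0.46. A second Psma4 probe, in column 31, gave −0.61 and 0.11 on arrays 1 and 2. Psma1, Psma2 and Psma6 were below 0 on both arrays, at −0.20 ± 0.04, −0.39 ± 0.29 and −0.35 ± 0.13. Psma5 was at 0.23 ± 0.36 and Psma7 at −0.30 ± 0.52.

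Of the beta ring, 0 of 7 genes were called and the median ratio was −0.24 (0.12 on array 1 and −0.25 on array 2). The catalytic subunits lay near 0 or short of the rule. Psmb5, the chymotrypsin-like subunit, was read at 10.73 in the transgenic and 10.57 in the wild-type pool on array 1 and at 10.92 and 11.02 on array 2, a ratio of 0.03 ± 0.19. Psmb6, the caspase-like subunit, was read at 11.16 and 10.69 and then at 10.94 and 11.15, a ratio of 0.13 ± 0.49. For both, the order of the pools changed with the array. Psmb7, the trypsin-like subunit, was read at 8.75 and 9.44 on array 1 and 9.92 and 10.07 on array 2, lower in the transgenic pool each time, with ratios of −0.69 and −0.15 (−0.42 ± 0.38). The array 2 ratio missed 1.5-fold, which is 0.585 in log2. With the scanner's own log ratios Psmb7 was at −0.665 and −0.55, and in the authors' deposited table at −0.67 and −0.58. Its array 2 ratio there came closer to the rule and still missed it. Among the structural subunits, Psmb3 was read at 12.72 and 12.60 on array 1 and at 10.90 and 12.34 on array 2, so that −1.44 stood against 0.12. Its spot is in column 75, and subtraction of the block median left −0.94 on array 2. A second Psmb3 probe, in column 64, gave −0.42 and −0.58. Psmb2 was at −0.26 ± 0.01, Psmb1 at −0.19 ± 0.15 and Psmb4 at −0.24 ± 0.94.

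The base held the only called member. Its median was −0.29 (−0.26 on array 1 and −0.64 on array 2), 4 of 9 genes were below 0 on both arrays and 1 above 0 on both. Psmc3, one of the ATPases of the base ring, was read at 8.58 in the transgenic and 9.45 in the wild-type pool on array 1 and at 8.66 and 9.39 on array 2. The transgenic pool was the lower one each time, with ratios of −0.88 and −0.74 (−0.81 ± 0.10), or 1.75-fold lower. Its single probe is in column 75, and with the block median subtracted the ratios were −0.75 and −0.62. With the scanner's own log ratios they were −0.66 and −0.12, and in the authors' deposited table −0.66 and −0.15, so the call of Psmc3 ended under both. The deposited table follows the scanner's ratios, so these are not separate checks.

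Psmc2, another ATPase, was read at 10.13 in the transgenic and 10.45 in the wild-type pool on array 1 and at 7.89 and 10.31 on array 2. Psmd2, a scaffold of the base together with Psmd1, was read at 10.28 and 10.53 on array 1 and at 8.03 and 10.35 on array 2. For both genes the transgenic pool on array 2 was the one reading apart from the other 3. Ratios were −0.32 and −2.41 (−1.37 ± 1.48) for Psmc2 and −0.26 and −2.32 (−1.29 ± 1.46) for Psmd2, and neither passed the rule. The transgenic level of Psmc2 on array 2 was not well above background and is only an upper bound, so the size of that ratio and of its mean is uncertain. Their spots are in columns 82 and 79, and −1.96 and −1.72 were left on array 2 after subtraction of the block medians. A second Psmd2 probe, in column 65, gave 0.40 and 0.10, the widest gap between probes of a member. Psmc4 was brighter in Cy3 on both arrays, at 0.62 and −1.21, with its spot in column 77, and its other probe gave 0.17 and −0.64 in column 36. Of the rest of the base, Psmd4, a ubiquitin receptor, was at −0.39 ± 0.04, Psmc6 at −0.29 ± 0.49, Psmd1 at −0.14 ± 0.20, Psmc5 at 0.16 ± 0.51 and Psmc1 at 0.21 ± 0.18. The base has 5 of its 9 spots in columns 71 to 85, and its median without them was −0.07.

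In the lid 0 of 8 genes were called, with a median of −0.12 (0.15 on array 1 and −0.42 on array 2). Psmd14, the enzyme that cuts ubiquitin from the substrate, was read at 8.80 in the transgenic and 8.62 in the wild-type pool on array 1 and at 8.30 and 8.71 on array 2, a ratio of −0.11 ± 0.42. Psmd8 was read at 9.53 and 9.28 on array 1 and at 7.23 and 9.73 on array 2. The transgenic signal was well above background on 1 of 2 arrays, so its level on array 2 is only an upper bound, and the size of the array 2 ratio is uncertain. The measured ratios were 0.25 and −2.50 (−1.12 ± 1.94). Its spot is in column 73, and −1.80 was left on array 2 after the block median was subtracted. The scaffold genes Psmd3 and Psmd7 were at 0.10 ± 0.15 and 0.06 ± 0.07. The other Psmd7 probe went opposite ways, at 1.16 and −0.69. Psmd6, Psmd11, Psmd12 and Psmd13 were above 0 on array 1 and below 0 on array 2. The transgenic level of Psmd13 on array 2 was not well above background, so the size of that ratio is uncertain. Psmd12 was brighter in Cy3 by at least 1.5-fold on both arrays (0.61 and −0.87), and its 2 other probes gave 1.40 and −0.35, and −0.28 and 0.17.

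Among the activators 0 of 4 genes were called and the median was 0.12 (0.09 on array 1 and 0.35 on array 2). Psme3, which encodes the nuclear activator REG gamma, was read at 10.30 in the transgenic and 10.07 in the wild-type pool on array 1 and at 11.57 and 10.25 on array 2. The transgenic pool was the higher one on both arrays, with ratios of 0.23 and 1.32 (0.77 ± 0.77), and the array 1 ratio missed 1.5-fold. Its spot is in column 19, and the ratios were 0.33 and 1.14 after subtraction of the block medians. Psme1 and Psme2 encode the interferon-inducible activator whose subunits form a shared ring. Psme1 was at 0.24 ± 0.41 and Psme2 at −0.11 ± 0.40, each with opposite signs on the arrays. Psme4 was brighter in Cy3 on both arrays, at 0.67 and −0.68, and its mean was 0.00 ± 0.96. Its 2 other probes did not follow the dye, at 0.55 and 0.53, and at −0.34 and −0.19. In all, 3 members followed the dye in this way (Psmc4, Psmd12 and Psme4, 6.82% of 44), and 3.06% of all detected genes did.

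The assembly chaperones had 0 calls. The core chaperones Psmg1 to Psmg4, which help the alpha ring form, had a median of −0.02, with 0.28 on array 1 and −0.24 on array 2. All 4 were above 0 on array 1 and below 0 on array 2, with mean ratios from −0.26 (Psmg2) to 0.08 (Psmg1). The transgenic levels of Psmg1 and Psmg3 on array 2 were not well above background, so the sizes of those ratios are uncertain. Without these genes, the median of the core chaperones was −0.15. The base chaperones Psmd5, Psmd9 and Psmd10 lay close to 0, at −0.17 ± 0.21, −0.02 ± 0.13 and 0.08 ± 0.14. A second Psmd9 probe was past 1.5-fold in opposite directions, at −0.71 and 0.66. Of the genes taken by name only, Psmc3ip was at −0.12 ± 0.18 and Psme3ip1 at −0.22 ± 0.79.

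A second probe was a check on the brightest one. More than 1 detected probe existed for 14 members, and for 6 of these the probes had mean ratios of opposite sign. The median range between the probes of a gene was 0.25 in log2, the widest was 1.54 (Psmd2), and 0 probes of these genes passed the rule.

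**Figure D4:**
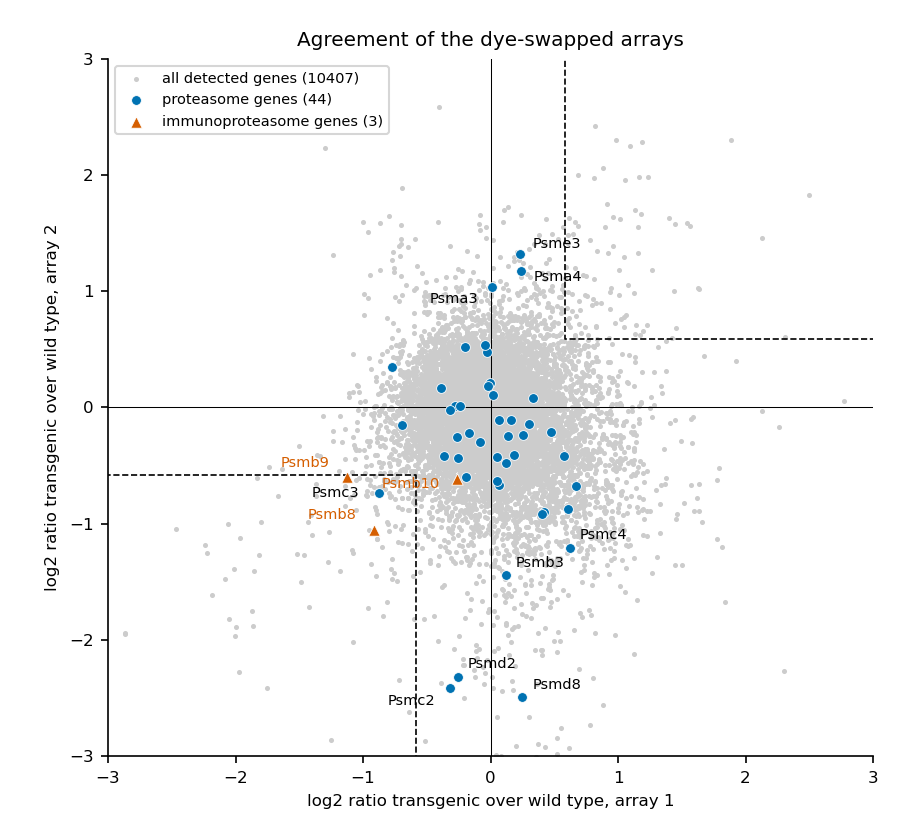
Log2 ratio on array 2 against array 1 for all 10407 detected genes (grey), the 44 detected proteasome genes (circles) and the 3 immunoproteasome genes (triangles); dashed corners mark the area of called genes. Psmc3, Psmb8 and Psmb9 lie in the lower corner, and the proteasome genes are spread more along array 2 than along array 1; 21 genes lie outside the axes.

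The products of the immunoproteasome genes replace the catalytic subunits of the beta ring in immune cells and after interferon. Of these genes 2 of 3 were called lower, where 0 of the 3 catalytic subunits were called. Of all 10407 detected genes 1.31% were called lower, the share to set beside each count in this paragraph. Psmb8 was read at 7.90 in the transgenic and 8.81 in the wild-type pool on array 1 and at 8.27 and 9.33 on array 2, a ratio of −0.98 ± 0.10. Psmb9 was read at 8.31 and 9.43 and then at 8.94 and 9.54, a ratio of −0.86 ± 0.37. Both were lower in the transgenic pool on each array and passed the rule. Psmb9 did so with −0.60 on array 2, which became −0.52 without background subtraction and ended its call. Scaling between the arrays ended it as well, and at 2-fold neither gene was called. The call of Psmb9 held with block medians subtracted, at −1.01 and −0.77. It also held in the authors' deposited table, at −1.01 and −1.03, and with the scanner's ratios, which that table follows. Psmb10 was at −0.26 and −0.62 (−0.44 ± 0.25) and did not pass the rule. The difference between them and Psmb5, Psmb6 and Psmb7 was not tested, as there is 1 pool per genotype. Markers of some other cells were lower as well, and those of others were not. Of 11 detected myeloid markers all were below 0 on both arrays and 3 were called lower (Cd74, C1qc and Mrc1). Their summed level was 10.82 and 11.19 in the transgenic and 11.76 and 12.35 in the wild-type pool on arrays 1 and 2. Of 13 detected interferon-responsive genes 5 were called lower, with a median of −0.39 and Ifit1 not detected. All 13 had a mean ratio below 0, and 10 were below 0 on both arrays. Their summed level was 15.92 and 16.78 in the transgenic and 16.94 and 16.14 in the wild-type pool, a sum set mostly by the bright gene B2m, whose ratios were −0.99 and 0.80. Of 9 adipocyte markers 6 were called lower. Above background in both pools on both arrays were 5 of the 11 myeloid, 3 of the 13 interferon-responsive and 4 of the 9 adipocyte markers. The others counted as detected through the wild-type pool alone, where their mean level was higher. Their direction is therefore not independent of the detection rule. All 6 luminal epithelial markers were detected in both pools and none was called, with a median of −0.08. Of 3 basal, 4 smooth muscle and 2 erythrocyte markers detected, 0 were called, with medians of 0.06, 0.09 and −0.19. Of 5 T cell markers 2 were detected and 1 was called lower. The part of all these markers in the result was not tested.

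The other genes of the ubiquitin-proteasome pathway showed 2 calls. Of 49 listed genes 48 were on the array and 44 detected, of which 2 were higher, 0 lower and 42 neither, with a median of −0.05. Over all detected genes, 2.22% were called and 0.913% were higher. Sqstm1, which encodes the autophagy receptor p62, was read at 11.71 in the transgenic and 11.03 in the wild-type pool on array 1 and at 13.43 and 11.87 on array 2. The transgenic pool was the higher one on both arrays, with ratios of 0.69 and 1.56 (1.12 ± 0.62). Its spot is in column 82. After subtraction of the block medians Sqstm1 was at 0.36 and 0.98 and lost its call. It also lost it with the scanner's own log ratios, at 0.34 on array 1.

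By group, 0 of 13 proteasome partners, 0 of 9 genes of the VCP segregase complex, 0 of 6 ubiquitin-supply genes and 0 of 5 detected proteasome regulators were called. Usp14, a deubiquitinating enzyme bound to the base, came closest, at 0.56 and 1.02 (0.79 ± 0.32), with its spot in column 17. It passed the rule with the scanner's own log ratios (0.94 and 1.07) and in the authors' deposited table (0.94 and 1.04). Of all genes, 8.33% and 4.8% were called under these. Ubb, a polyubiquitin gene, was at −0.50 ± 0.02, and Pomp, the maturation factor of the core, at 0.26 ± 0.29. Nfe2l1, the regulator named above, was at −0.31 and 0.14 (−0.09 ± 0.32). Of 6 detected NRF2 targets, Sqstm1 was the only one called. Nqo1 and Slc7a11 were not detected.

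The median of the proteasome genes was followed through 14 other ways of processing the same arrays. It lay below the median of all genes in 12 of them, by 0.04 to 0.32 in log2, and above it in 2, with array 1 alone (0.03 against −0.03) and with the scanner's own log ratios (−0.10 against −0.11).

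**Figure D5:**
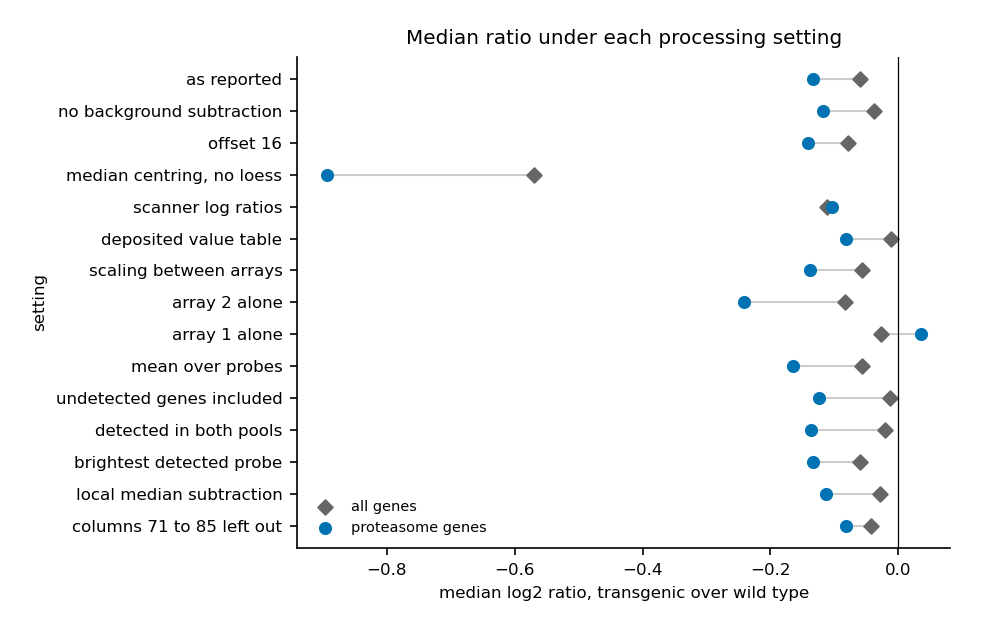
Median log2 ratio of the detected proteasome genes (circles) and of all detected genes (diamonds) under each way of processing the arrays. With median centring and no loess both medians move, to −0.89 and −0.57; under the other settings the proteasome median lies between −0.24 and 0.03.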

How the data were processed

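Per the file headers, Feature Extraction 11.0.1.1 made both deposited scanner files. The deposited spot and background values are median pixel intensities in each dye, while the log ratios deposited beside them are log10 of the processed Cy5 signal over Cy3. The authors' deposited table holds 8533 rows in log2. It matched the scanner's ratio of transgenic over wild type with a slope of 1.0000 on each array, and the sources used here do not give its filter.

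Ratios were computed in R 4.3.3 with limma 3.58.1, by normexp (offset 50) and loess that gave control and outlier spots a weight of 0, and turned by the dyes in the labels. The planned mean signal is not among the columns used, so the median was taken. Levels are Aquantile-normalized log2 intensities of each pool. Block medians were taken over 19 rows and 5 columns of spots, a median of 53 detected spots each, and subtracted only where stated. Summed levels are log2 of summed linear intensities.

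Probes were named by accession through RefSeq of GRCm38.p6, for 27816 of 41174 probes. Names were allowed for every member, for up to 4 genes of each other list with the largest ratio, for those past the rule, and for Psmb8, Psmb9, Psmb10, Nfe2l1 and Pomp; others were chosen after their values were seen. The other called gene of the pathway lists is not reported here. The members, lists and tests were chosen with earlier results of these data known. The calling script was tested on simulated data that lacked the spread at the edge and the weak Cy5 of array 2. That test does not measure its error on these arrays. Precision is limited by having 2 arrays and by weak Cy5 on array 2, whose median net intensity was 10 (array 1: 26). Figures were drawn with matplotlib 3.10.9.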

Additional observations from a re-analysis of the deposited data

How the results depend on the processing

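Psmc3 remained the only called member without background subtraction, with an offset of 16, with scaling between arrays and with probes averaged. It also did so among genes detected in both pools, with the brightest detected probe and with block medians subtracted. Under these settings 1.75% to 3.73% of all genes were called, against 2.27% to 2.56% of the members. The count of lower members was 0 with the scanner's own log ratios, in the deposited table, at 2-fold and without columns 71 to 85, and 3 with median centring (Psmb7, Psmc3 and Psme3ip1). Of all genes, 8.33% were called with the scanner's ratios, 4.8% in the deposited table, 0.596% at 2-fold, 1.84% without those columns and 5.34% with median centring, against 0%, 0%, 0%, 0% and 6.82% of the members. With array 1 alone 3 members were lower and 3 higher, while 5.36% of all genes were lower and 8.12% higher. With array 2 alone 13 members were lower and 3 higher, while 15% of all genes were lower and 5.23% higher. No paired analysis was possible because both arrays hold the same pair of pools, which is 1 replicate. The alternatives of the brightest detected probe, block medians and left-out columns were chosen after seeing the data.

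Median centring without loess moved the median of all genes from −0.06 to −0.57, and with it that of the members to −0.89, the alpha ring to −1.10, beta ring −1.10, base −1.18, lid −0.92, activators −0.79, core chaperones −0.62 and base chaperones −0.47. With either array alone the medians ran from −0.24 to 0.03 for the members, −0.22 to −0.0276 for the alpha ring, −0.25 to 0.12 for the beta ring, −0.64 to −0.26 for the base, −0.42 to 0.15 for the lid, 0.0917 to 0.35 for the activators, −0.24 to 0.28 for the core chaperones and −0.025 to −0.0205 for the base chaperones. The alpha ring was at 0.11 with the scanner's own log ratios and 0.0924 in the deposited table. The base chaperones were at 0.0164 without background subtraction, −0.0396 with an offset of 16, 0.0205 with the scanner's own log ratios, 0.0071 in the deposited table, −0.0136 with scaling and 0.0709 with block medians subtracted. The count of other pathway genes past the rule, 2, became 5 with the scanner's own log ratios, 1 at 2-fold, 1 with block medians subtracted, 0 without columns 71 to 85, and 5 to 12 with either array alone. The shares of all genes called were, in that order, 8.33%, 0.596%, 1.87%, 1.84%, and 13.5% to 20.3%. Of 1296 values for single genes 152 moved by more than the SD over the arrays. Apart from the left-out genes and the stricter fold, the causes were not tested.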
